A study of Mus musculus with 16 samples.

Results

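This comparison set a Firre KO line with an inducible Firre transgene (KO transgene) against a Firre WT line with the same kind of transgene (WT transgene), both mouse embryonic stem cells. H3K27me3 and input DNA were sequenced in each line at 0 h and 48 h of doxycycline, the drug that switches the transgene on. Each condition had 1 library per assay, so each assay had 2 KO transgene and 2 WT transgene libraries. The members were chosen by their labels, as 8 of the 16 libraries of the series. The other 8 came from lines labelled KO control and WT control, without the transgene, which were used for comparison only. All lines had been kept on gelatin in serum medium with LIF, PD0325901 and CHIR99021. Each background was seen in a single line here, and no label says whether it was a clone. An effect of the Firre deletion thus cannot be told apart from any other difference between the 2 lines.

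Firre is a nuclear long non-coding RNA transcribed from the X chromosome. H3K27me3 is the trimethylation of lysine 27 on histone H3 that Polycomb repressive complex 2 writes at silenced genes, and in embryonic stem cells it covers developmental regulators such as the Hox clusters. Input is sheared chromatin sequenced without antibody, so it shows how much DNA of a region each library holds.

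Total counts over the 102957 consensus peaks were 12756209 and 14787938 in the KO transgene H3K27me3 libraries at 0 h and 48 h, and 13470532 and 13123205 in those of WT transgene. The inputs held 6052088 and 6029434 counts in KO transgene and 5870865 and 6244333 in WT transgene. The 1% of peaks most enriched over input in the control lines held 5.06% and 4.87% of H3K27me3 counts off chromosome 11 in KO transgene, against 5.07% and 4.89% in WT transgene. By this measure the pulldowns of both lines were close to each other. Values are given below in CPM, the counts of a peak scaled to a common library total over all peaks, and log2 values are KO transgene over WT transgene ± SE. A peak was called where the quasi-likelihood test of edgeR gave an adjusted p below 0.05 (Benjamini-Hochberg, over all peaks).

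The Firre gene held 1 peak (chromosome X, 50569315 to 50570264, mm10). Its H3K27me3 was 13.5 CPM at 0 h and 3.18 CPM at 48 h in KO transgene, against 19.5 and 4.34 CPM in WT transgene. Input was 10.9 and 11.6 CPM in KO transgene, against 15.2 and 16.7 CPM in WT transgene. Both assays were thus lower in KO transgene at both times, by 0.51 ± 0.13 in H3K27me3 (log2 -0.51, edgeR adjusted p = 0.00902, or 0.0676 with chromosome 11 left out of the fit) and by 0.49 ± 0.16 in input (log2 -0.49, adjusted p = 0.207). Input was 11.1 and 11.7 CPM in the line labelled KO control and 0.485 and 1.00 CPM in the line labelled WT control. DNA of this peak in a KO line without transgene, and its near absence in a WT line, both go against the labels. Both control lines are therefore called by their labels throughout, and directions between them are as labelled. Since the labels do not say which stretch of Firre was deleted, the peak does not check the knockout.

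Along chromosome 11, the KO transgene line held more DNA and, in the same proportion, more H3K27me3. Chromosome 11 took 9.62% and 9.60% of H3K27me3 counts in KO transgene at 0 h and 48 h, against 7.98% and 8.04% in WT transgene. In input it took 9.98% and 9.96% in KO transgene, against 8.26% and 8.25% in WT transgene. The groups did not overlap, and the ratio of means was 1.20 in H3K27me3 and 1.21 in input (exact two-sided permutation p = 0.333 for each assay, and 2 against 2 libraries cannot give a smaller one). Divided by the input ratio, the H3K27me3 ratio was 0.996 at 0 h and 0.988 at 48 h. In 12 bins of 10 Mb along the chromosome, the ratio to peaks off chromosome 11 lay between 1.19 and 1.263 in H3K27me3 and between 1.21 and 1.24 in input. The same bins gave 1.31 to 1.39 and 1.33 to 1.38 between the lines labelled KO control and WT control, which share no library with the transgene lines. The last bin, from 120 to 130 Mb with 73 peaks, is left out of these ranges. It gave 1.23 in H3K27me3 and 1.24 in input between the transgene lines, and 1.32 and 1.41 between the control lines. Relative to peaks off chromosome 11, every other chromosome stayed between 0.975 (X) and 1.01 (9) in H3K27me3, and between 0.991 (6) and 1.01 (10) in input.

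**Figure D1:**
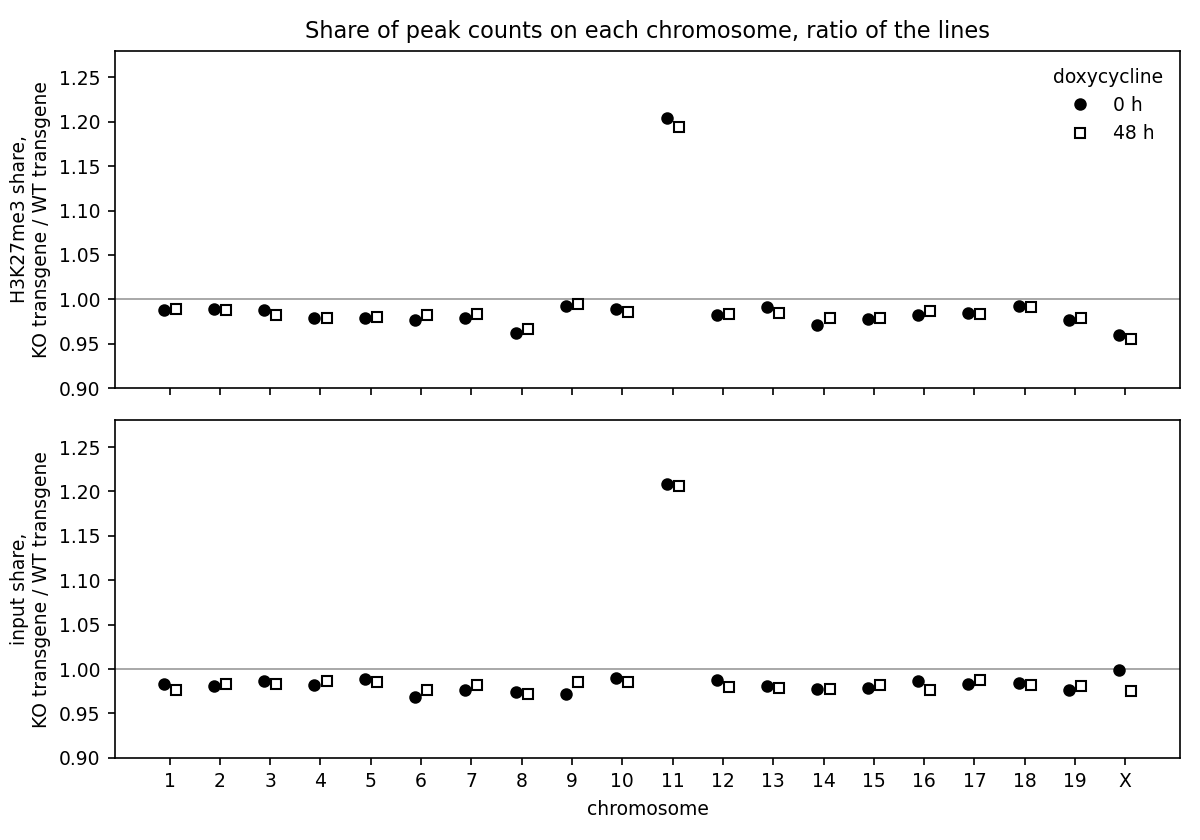
The share of peak counts on each chromosome in KO transgene divided by that in WT transgene is plotted on the y axis for H3K27me3 (top) and input (bottom), with filled circles at 0 h and open squares at 48 h of doxycycline. Chromosome 11 stands near 1.2 in both assays at both times, and since shares sum to a whole, the other chromosomes lie just under 1.

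Of 102922 peaks tested in H3K27me3, 1718 were called (1.67%). On chromosome 11, 1243 of 5808 peaks were higher in KO transgene (21.4%) and 1 was lower (0.0172%), and 5352 peaks (92.1%) lay above 0. Their median log2 was 0.28 in H3K27me3 and 0.28 in input. In input, 474 of 94368 peaks were called (0.502%), of which 440 lay on chromosome 11, all higher (7.85%). With H3K27me3 tested relative to input, only 3 of 102819 peaks were called (0.00292%), all lower and off chromosome 11 (0.00309%), against 6145 at an unadjusted p under 0.05. DESeq2 called none in that test, with 67 at an unadjusted p under 0.05.

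Developmental genes of chromosome 11 were higher in H3K27me3, most of them also in input. Counts were summed per gene region, which is the gene span with 2 kb on either side. In H3K27me3, 1831 of 22302 regions were called (8.21%), with 1030 of the 1538 regions on chromosome 11 higher (67.0%) and none lower. In input, 710 of 21825 regions were called (3.25%), of which 672 lay on chromosome 11, all higher (44.0%), and 17 were higher off it (0.0838%). The HoxB genes pattern the body axis. Their cluster (chromosome 11, 96194316 to 96368254) had 1215 and 1162 CPM of H3K27me3 in KO transgene, against 1003 and 926 CPM in WT transgene. Its input was 548.7 and 559.6 CPM in KO transgene, against 468 and 449 CPM in WT transgene. The log2 ratio was 0.30 in H3K27me3 and 0.27 in input, and both KO transgene libraries lay above both WT transgene libraries in each assay. The 21 listed regions on chromosome 11 were all called higher, on a chromosome where most regions were. They included the 2 Hox regions, 5 neuroectoderm regulators (Lhx1, Neurod2, Dlx3, Dlx4 and Otx1), 4 mesoderm regulators (Tbx2, Tbx4, Meox1 and Hand1), 4 Wnt ligands (Wnt3, Wnt3a, Wnt9a and Wnt9b), the Polycomb genes Cbx2 and Ezh1, the imprinted gene Grb10 and the collagen gene Col1a1. Cbx2 encodes a chromobox reader and Ezh1 a methyltransferase of the Polycomb complexes. Cbx2 rose by 0.34 ± 0.02 with input at 0.30, and Tbx2, a T-box repressor, by 0.35 ± 0.04 with input at 0.42. In input, Dlx3 was not called (0.24 ± 0.13, adjusted p = 0.583), and 4 of the 5 neuroectoderm regions were. None of the 21 passed relative to input.

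Off chromosome 11 few genes of these lists passed the test. In H3K27me3, 801 of 20764 regions off chromosome 11 were called (3.86%), 364 higher (1.75%) and 437 lower (2.1%), or 421 with chromosome 11 left out of the fit (2.03%), and their median log2 was -0.01. None of the 29 neuroectoderm (median log2 -0.01), 19 mesoderm (-0.03) or 15 Wnt ligand regions (-0.04) was called. The same held for the 4 Polycomb, 14 germline and 5 X inactivation regions. HoxA had 752.7 and 690.5 CPM in KO transgene, against 766.6 and 724 CPM in WT transgene. HoxD had 701 and 635 CPM in KO transgene, against 698 and 643 CPM in WT transgene. The 2 called Hox regions were both in HoxC, where Hoxc13 had 124 and 126 CPM in KO transgene, against 113 and 107 CPM in WT transgene (0.19 ± 0.04, edgeR adjusted p = 3.69e-05). The region from Hoxc12 to Hoxc4 was higher by 0.06 ± 0.02 (adjusted p = 0.0307), and was not called with total counts in place of TMM scaling (adjusted p = 0.0851).

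The remaining calls in the lists were single genes. Cdx1, a caudal homeobox gene of the gut, had 108 and 110.02 CPM in KO transgene, against 95.2 and 93.7 CPM in WT transgene (0.22 ± 0.04, adjusted p = 5.05e-06). Dppa3, a maternal factor marking naive pluripotency, had 22.0 and 22.6 CPM in KO transgene, against 27.5 and 27.4 CPM in WT transgene. It was 1 of 3 pluripotency regions with a peak and was lower at -0.29 ± 0.08 (adjusted p = 0.00644). Tfap2c, a trophoblast and germline transcription factor, was lower at -0.28 ± 0.08 (adjusted p = 0.00662), as 1 of 9 trophoblast regions off chromosome 11. Among the feeder fibroblast markers off chromosome 11, only Pdgfrb of 7 was called, at 0.16 ± 0.04, and it shares a called peak with the neighbouring Cdx1, so these calls are not independent. Airn, the antisense RNA of the Igf2r imprinted cluster, was the only call among 18 imprinted regions (-0.12 ± 0.03, adjusted p = 0.0137), and was not called with chromosome 11 left out (0.0828). Neither the 6 primed epiblast nor the 7 primitive endoderm marker regions held a call. None of these calls passed relative to input.

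**Figure D2:**
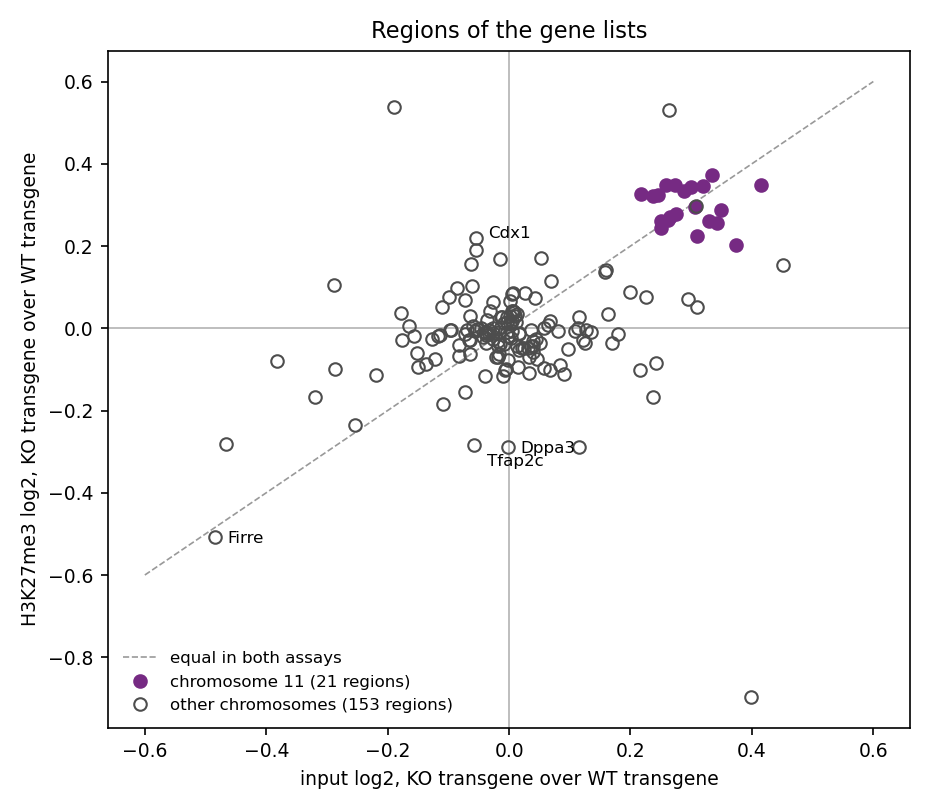
For each region of the gene lists, the x axis gives the log2 ratio of KO transgene over WT transgene in input and the y axis that in H3K27me3, with chromosome 11 in filled purple and other chromosomes in open circles. The 21 regions on chromosome 11 sit near the dashed line of equal change, and the 153 others scatter about 0 on both axes.

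A second stretch, on chromosome 6, also differed in both assays. In windows of 1 Mb, input was more than 0.2 higher on the log2 scale at both times in 4 of 1907 windows off chromosome 11, and all 4 lay between 65 and 72 Mb of chromosome 6. On chromosome 11, 110 of 112 windows passed the same limit. A segment from 63 to 75 Mb (mm10) was then drawn around them after these values had been seen. Relative to other peaks off chromosome 11, H3K27me3 over its 360 peaks was 1.21 and 1.20 times as high in KO transgene as in WT transgene at 0 h and 48 h, and input 1.19 and 1.16 times. The KO transgene line lay close to the others, at 1.00 times the line labelled KO control in H3K27me3 and 0.980 times in input. WT transgene was at 0.838 times the line labelled WT control in H3K27me3 and at 0.834 times in input. Here the WT transgene line was the one that stood apart. The rest of chromosome 6 was at 0.989 in H3K27me3 and 0.984 in input between the transgene lines.

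**Figure D3:**
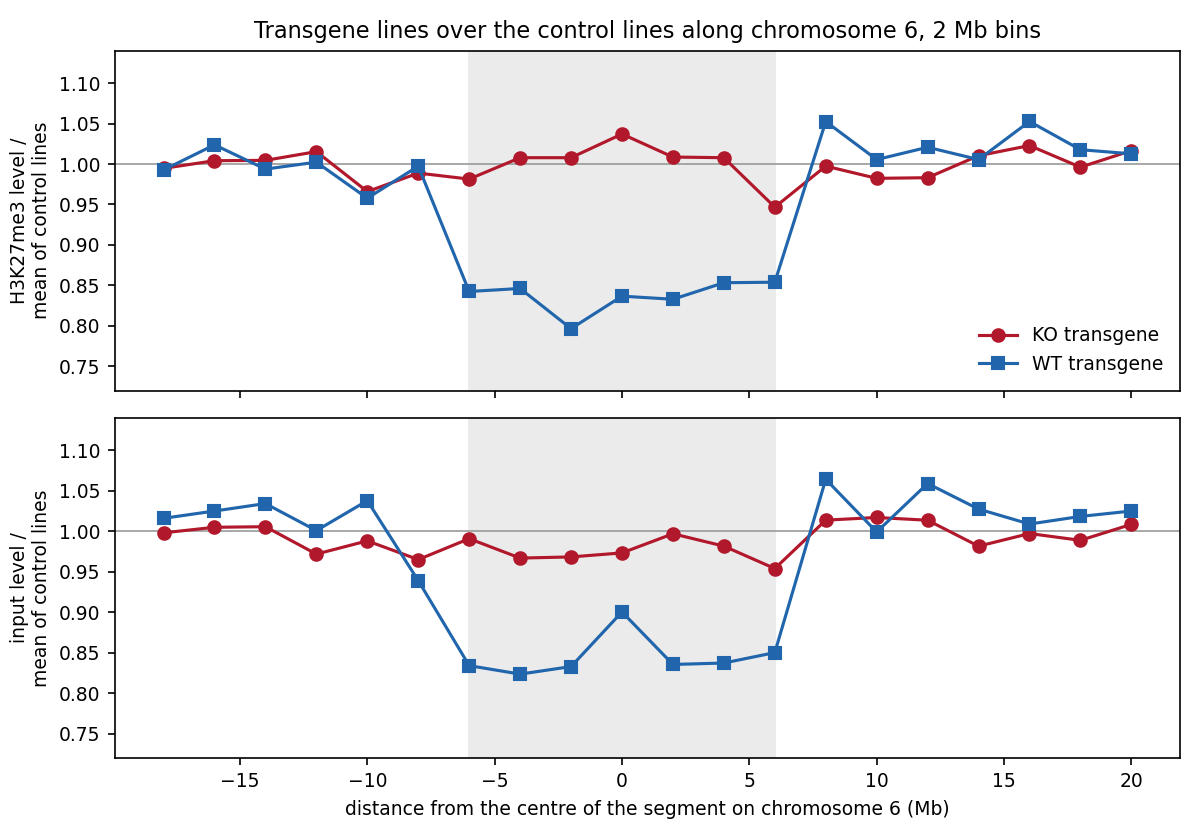
Levels in KO transgene (red circles) and WT transgene (blue squares) are divided by the mean of both control lines in bins of 2 Mb, for H3K27me3 (top) and input (bottom), with both times summed. The x axis gives the distance in Mb from the centre of the shaded segment on chromosome 6, inside which WT transgene lies below KO transgene in both assays.

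Within this segment 26 peaks were called higher in KO transgene and none lower (7.22%, against 0.248% called higher off chromosome 11 as a whole). Of the 91 gene regions inside it, 33 were called higher and none lower, and none passed relative to input. The examples were chosen after their values were seen. Atoh1, a proneural factor of cerebellar granule and hair cells, had 98.6 and 103 CPM in KO transgene, against 92.1 and 87.5 CPM in WT transgene (0.18 ± 0.04, with input at 0.17 ± 0.08). Foxi3, a forkhead gene of placodes and skin appendages, had 104 and 99.3 CPM in KO transgene, against 92.6 and 86.03 CPM in WT transgene (0.20 ± 0.04, with input at 0.25 ± 0.08). Tcf7l1, a transcriptional effector of Wnt signalling, had 8.15 and 8.25 CPM in KO transgene, against 5.64 and 5.11 CPM in WT transgene. H3K27me3 over input in the control lines was 0.47 on the log2 scale at Atoh1 and 0.73 at Foxi3 but only 0.03 at Tcf7l1. In each of these genes both KO transgene libraries were above both WT transgene libraries. Input of the segment was higher beside each of these calls.

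Outside chromosome 11 the differences in H3K27me3 were few. With all chromosomes fitted together, 241 of 97114 peaks were called higher (0.248%) and 233 lower (0.24%). Of these 474 peaks, 212 had above-average H3K27me3 over input in the control lines. A fit without chromosome 11 has its own scaling, its own dispersion and fewer peaks to adjust over. It called 157 of 97122 peaks (0.162%), 110 higher and 47 lower, and 15 of the 110 lay in the chromosome 6 segment. The other 142 had a median absolute log2 of 0.45, and input moved the same way in 75 of them (52.8%). In the 1% of peaks most enriched over input the median log2 was -0.03, and with all chromosomes fitted 5 were called higher and 13 lower of 972 (1.85%). With chromosome 11 left out, 4 of them were higher and 2 lower (0.617%).

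Among the 10 largest rises off chromosome 11 in peaks above the median depth, Skida1 came first. Skida1 encodes a protein with a SKI/DACH domain, and its peak (chromosome 2, 18044310 to 18046651) had 6.59 and 5.55 CPM of H3K27me3 in KO transgene, against 2.45 and 2.59 CPM in WT transgene. Both KO transgene libraries were above both WT transgene ones (1.27 ± 0.20, edgeR adjusted p = 1.18e-07), while input was at 0.29 ± 0.24. Peaks named by this rule had to be called with 1 direction at both times. Separated H3K27me3 libraries at them are thus no further support. Tnrc18 encodes a nuclear protein that reads H3K9me3 in human cells. Its peak (chromosome 5, 142812403 to 142816957) had 14.2 and 11.6 CPM in KO transgene, against 8.61 and 5.94 CPM in WT transgene. Input there was 12.9 and 12.1 CPM in KO transgene, against 13.5 and 11.9 CPM in WT transgene, so that the lines overlapped in input but not in H3K27me3 (0.84 ± 0.13, adjusted p = 6.02e-08). Pbx3, which encodes a homeodomain partner of Hox proteins, had 7.996 and 7.91 CPM in KO transgene, against 4.60 and 5.03 CPM in WT transgene (0.73 ± 0.16). On the log2 scale, H3K27me3 over input in the control lines was -0.59 at Skida1, 0.28 at Tnrc18 and -0.29 at Pbx3. The kainate receptor gene Grik3 (0.76 ± 0.18), the rhotekin family gene Rtkn2 (0.82 ± 0.17) and Spats2l (0.77 ± 0.18) were also among the 10. Asap2, which encodes an Arf GTPase-activating protein (0.73 ± 0.17), and 3 peaks outside genes made up the rest. Of these 3, the peak on chromosome 6 (65647779 to 65650530) lay in the segment described above, with input at 0.29 ± 0.26. None of the 10 rises was called relative to input (edgeR adjusted p = 0.531 at Skida1 and 0.243 at Tnrc18).

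The deepest falls lay on a scaffold, JH792827.1, whose 3 peaks were lower in both assays. Summed over them, H3K27me3 was 15.9 and 14.9 CPM in KO transgene, against 67.3 and 72.01 CPM in WT transgene. Input was 26.4 and 28.4 CPM in KO transgene, against 96.2 and 87.6 CPM in WT transgene. The line labelled KO control (22.5 and 26.9 CPM of input) and the line labelled WT control (30.4 and 30.6 CPM) were near KO transgene, so WT transgene was again the line that stood apart. In H3K27me3 the 3 peaks lay between -2.24 and -2.04 on the log2 scale, and in input between -1.77 and -1.64.

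Peg10, a retrotransposon-derived imprinted gene needed in the placenta, had the deepest fall within a gene under the naming rule. Its peak (chromosome 6, 4753434 to 4755446) had 2.51 and 2.43 CPM of H3K27me3 in KO transgene, against 7.42 and 5.18 CPM in WT transgene (-1.33 ± 0.20, adjusted p = 1.57e-08). Input was 5.29 and 3.15 CPM in KO transgene, against 4.94 and 4.004 CPM in WT transgene, which overlap (-0.08 ± 0.28). A second Peg10 peak (4757045 to 4757761) was lower at -1.31 ± 0.32. Relative to input neither peak was called (edgeR adjusted p = 0.441 and 0.757). Over its 4 peaks, the Peg10 region was not called in H3K27me3. Cd86, a co-stimulatory ligand of antigen-presenting cells, had 4.63 and 3.65 CPM of H3K27me3 in KO transgene, against 7.57 and 8.31 CPM in WT transgene (-0.94 ± 0.17). Input of this peak pointed the same way without being called (-0.66 ± 0.22). Over the 7 peaks of the Cd86 region, input was called lower (-0.49 ± 0.08, edgeR adjusted p = 3.45e-07). H3K27me3 of that region was at -0.34 ± 0.07, and relative to input it was not called (0.14 ± 0.11). Gpc5, which encodes a glypican, was lower at -0.75 ± 0.17, with input at 0.45 ± 0.23. In the control lines, log2 H3K27me3 over input was -1.06 at the first Peg10 peak, -0.54 at the Cd86 peak and -0.26 at Gpc5. Gm43305 (-0.87 ± 0.16), the peak of Heatr4 and Riox1 (-0.70 ± 0.19), the centrosomal gene Cep85 (-0.70 ± 0.19) and 1 peak outside genes completed the 10. Of these 20 peaks and Firre, 5 lost their call with chromosome 11 left out of the fit, those of Heatr4 with Riox1, Cep85, Firre and 2 peaks outside genes.

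**Figure D4:**
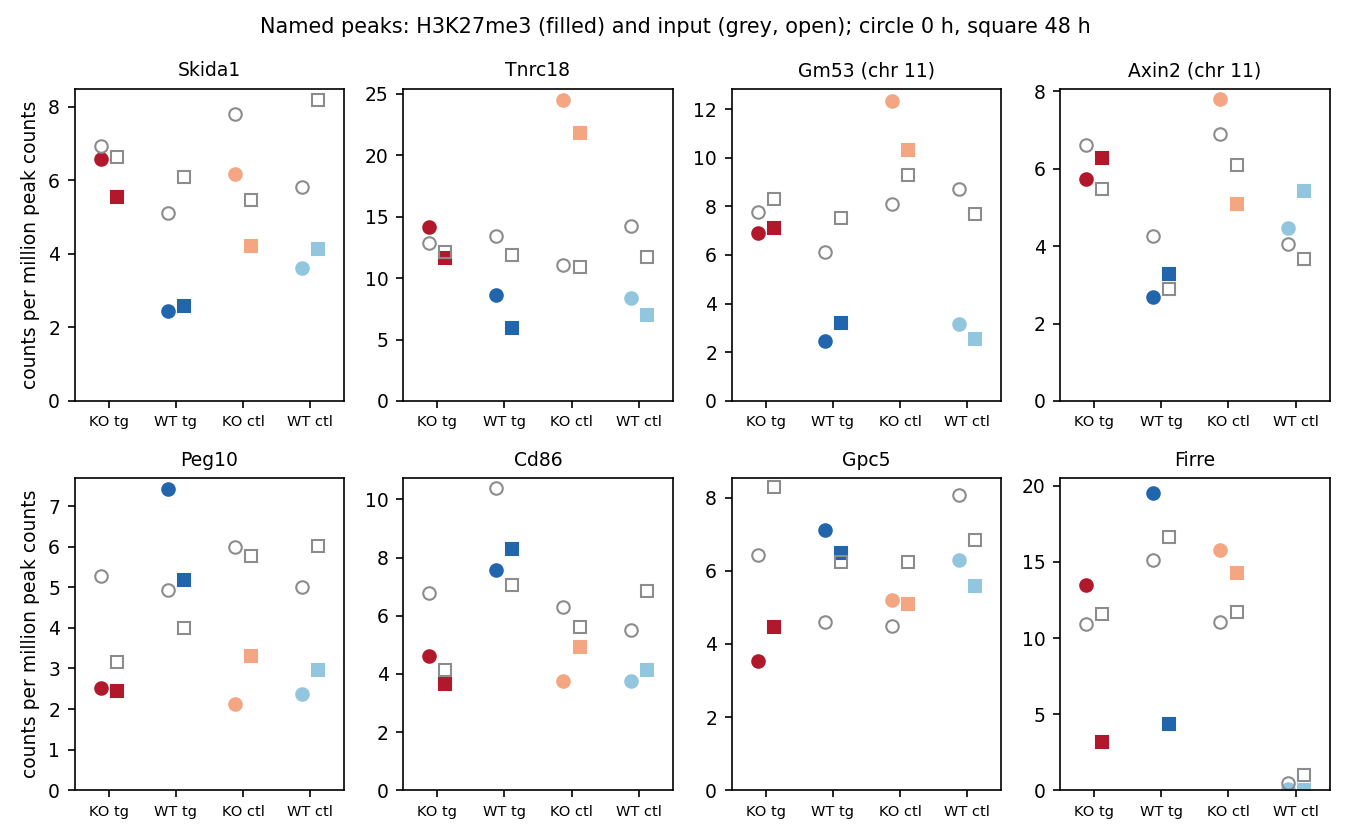
Each panel gives the CPM of a named peak on the y axis by line, KO transgene, WT transgene, KO control and WT control as labelled, with filled symbols for H3K27me3, grey open symbols for input, circles at 0 h and squares at 48 h. At Skida1, Tnrc18, Gm53 and Peg10 the H3K27me3 values of KO transgene and WT transgene are apart. The input values there lie closer to each other, but none of these peaks was called relative to input. At Firre both assays are lower in KO transgene.

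Some genes held several called H3K27me3 peaks. In the fit without chromosome 11, 11 genes had at least 2 called peaks, and none had calls in both directions. Among them, Gm33085 and A930004D18Rik hold the same 2 peaks and are not independent. The share over all genes with several peaks was not computed. Tns1, which encodes the focal adhesion protein tensin, had 5 of its 19 peaks higher (log2 0.27 to 1.08), and Grik3 had 3 of 14 higher. Across the 11 genes this ran from 2 of 28 peaks at Pakap to 2 of 2 at A930004D18Rik. Relative to input, 25 of 22297 gene regions were called (0.112%), 16 higher and 9 lower, or 11 with chromosome 11 left out of the fit. Off chromosome 11 there were 17 (0.0819%), 11 higher (0.053%) and 6 lower (0.0289%), and on it 8 (0.52%). Tns1 had 191 and 197 CPM of H3K27me3 in KO transgene, against 154 and 151 CPM in WT transgene. Its input was 167 and 177 CPM in KO transgene, against 183 and 184 CPM in WT transgene, and the difference relative to input was 0.43 ± 0.06 (adjusted p = 8.02e-10). Lats2, a kinase of the Hippo pathway that restrains YAP, had 114 and 109.7 CPM in KO transgene, against 82.996 and 88.1 CPM in WT transgene, with input almost level (0.37 ± 0.08 relative to input, adjusted p = 0.00138). Foxn4, a forkhead factor of retinal and spinal interneurons, had 51.8 and 44.4 CPM in KO transgene, against 63.9 and 63.8 CPM in WT transgene, with input at 0.04 ± 0.08 (-0.45 ± 0.10 relative to input, adjusted p = 0.00976).

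The start sites of Lats2, Tns1 and Foxn4 lay inside called H3K27me3 peaks, and their promoters are shown since CpG-dense start sites are the usual places of this mark. They run from 250 bases before to 50 after the RefSeq start (GRCm38.p6, minus strand in all 3), with each CG dinucleotide in capitals. Lats2 is at chr14:57746074-57746373, Tns1 at chr1:74124499-74124798 and Foxn4 at chr5:114273712-114274011.
Lats2 promoter: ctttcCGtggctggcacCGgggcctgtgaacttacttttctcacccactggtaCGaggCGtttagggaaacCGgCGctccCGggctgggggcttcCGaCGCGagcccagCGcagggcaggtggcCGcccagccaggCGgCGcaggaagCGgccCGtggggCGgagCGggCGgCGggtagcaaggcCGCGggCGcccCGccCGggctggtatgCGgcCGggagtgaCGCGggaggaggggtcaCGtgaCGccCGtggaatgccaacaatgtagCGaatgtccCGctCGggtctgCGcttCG
Tns1 promoter: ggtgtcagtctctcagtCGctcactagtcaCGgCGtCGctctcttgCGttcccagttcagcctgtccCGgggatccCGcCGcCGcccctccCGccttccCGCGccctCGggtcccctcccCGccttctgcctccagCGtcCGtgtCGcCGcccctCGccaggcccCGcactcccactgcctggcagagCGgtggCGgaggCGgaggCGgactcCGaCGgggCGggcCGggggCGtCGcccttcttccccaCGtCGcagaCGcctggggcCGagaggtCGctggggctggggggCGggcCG
Foxn4 promoter: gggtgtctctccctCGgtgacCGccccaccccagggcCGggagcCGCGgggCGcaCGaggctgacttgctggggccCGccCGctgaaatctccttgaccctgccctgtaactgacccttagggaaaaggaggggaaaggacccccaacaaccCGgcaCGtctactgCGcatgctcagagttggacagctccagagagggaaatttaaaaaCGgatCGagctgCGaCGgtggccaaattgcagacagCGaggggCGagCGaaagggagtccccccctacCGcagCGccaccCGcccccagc
They held 37, 37 and 22 CG dinucleotides (a palindrome, so equal on both strands), against a median of 7 over 32544 RefSeq promoters of the same length, of which 94.6% held at least 1. Of each gene's starts in a called peak, the one with the most CG dinucleotides was taken. These counts are thus high by choice and are no test against the median. The peak over the Lats2 start (57733605 to 57753648) had 64.8 and 60.2 CPM of H3K27me3 in KO transgene, against 48.4 and 47.5 CPM in WT transgene (0.39 ± 0.06). The peak over the Tns1 start (74117545 to 74135161) had 51.4 and 49.1 CPM in KO transgene, against 42.8 and 40.8 CPM in WT transgene (0.27 ± 0.06). At Foxn4 (114264218 to 114285007) the values were 47.04 and 40.98 CPM in KO transgene, against 57.98 and 56.9 CPM in WT transgene (-0.38 ± 0.06). The line labelled KO control had 44.1 and 44.1 CPM there, and the line labelled WT control 48.0 and 46.7 CPM. WT transgene was thus above each of the other lines at Foxn4, and the contrasts differed by -0.34 (edgeR adjusted p = 0.0237). At all 3 starts the lines did not overlap, although none of these single peaks passed relative to input. Over all promoters whose start lay in a called peak off chromosome 11, the median was 16 CG dinucleotides for 64 promoters in peaks called higher and 14 for 104 in peaks called lower. For the 9071 promoters with a start in any peak off chromosome 11, the median was 7, and 20.3% held at least 20. Among all promoters, 26.7% held at least 20. Only 39 peaks called higher and 62 called lower held a start site, so promoters that share a peak are not independent. The called share also rose with peak width off chromosome 11. It was 0.185% of the 43806 peaks in the narrowest width class and 2.62% of the 3131 in the widest. Whether the medians of called and other peaks differ at equal width was not tested.

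The other regions higher relative to input off chromosome 11 were Tnrc18 (0.77 ± 0.14), the G1 kinase gene Cdk6 (0.49 ± 0.12), Parvb, which encodes the focal adhesion protein beta-parvin (0.36 ± 0.07), the homeobox gene Pknox2 (0.31 ± 0.06), Rabgap1l (0.31 ± 0.06), the protein kinase A subunit gene Prkar1b (0.28 ± 0.06), Mcc (0.27 ± 0.07), Grik3 (0.24 ± 0.06) and Gm41031 (0.61 ± 0.15). Lower regions off chromosome 11 included the zinc finger genes Repin1 (-0.65 ± 0.16) and Zfp516 (-0.71 ± 0.14), the neighbours of Zfp516 that share its peak, Gm35701 (-0.36 ± 0.08) and Gm51678 (-1.23 ± 0.30). Zfp516 held 1 of the 3 peaks called relative to input, where H3K27me3 was lower and input higher in KO transgene. The other two peaks, on chromosome 19 (55038149 to 55051890) and chromosome 2 (152498657 to 152500665), lay outside genes and had the same opposite signs. The chromosome 2 peak was outside the naming rule and was chosen after its values were seen. With chromosome 11 left out, Cdk6, Mcc, Grik3, Gm41031, Repin1 and Gm51678 no longer passed relative to input.

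A few chromosome 11 regions departed from the even shift of that chromosome. Gm53 is a transcript inside the HoxB cluster. Its peak under the naming rule (96262540 to 96265181) shares its last 18 bases with the hairpin of Mir196a-1. Mir196a-1 is a Hox-embedded microRNA gene known to target Hox transcripts. The mature sequence from RefSeq (GRCm38.p6, chr11:96265187-96265208, plus strand) is shown with its seed, bases 2 to 8, in capitals.
mmu-miR-196a-5p: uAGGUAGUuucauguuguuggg
This peak had 6.90 and 7.10 CPM of H3K27me3 in KO transgene, against 2.45 and 3.20 CPM in WT transgene. Input was 7.77 and 8.29 CPM in KO transgene, against 6.13 and 7.53 CPM in WT transgene. Both assays were higher in both KO transgene libraries, but H3K27me3 by more (1.31 ± 0.19, with input at 0.24 ± 0.22). Scaled on chromosome 11 alone, which was chosen after the data were seen, it stayed at 1.04 (edgeR adjusted p = 0.0146). Relative to input the peak was not called (1.07 ± 0.29, edgeR adjusted p = 0.367, or 0.202 scaled on chromosome 11). Its log2 H3K27me3 over input in the control lines was -0.35. As a region, Gm53 was 1.05 ± 0.21 higher relative to input (adjusted p = 0.000786).

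In the fit scaled on chromosome 11, 7 of 5806 peaks were called (0.121%), which, apart from Gm53, were named after their values were seen. Higher were Gm53, 4930554G24Rik, the peak of Mmgt2 and Zfp287, 2 peaks of Ntn1 and the peak of Gm31954, which adjoins Ntn1, and lower was Camk2b. Ntn1 encodes the axon guidance cue netrin. As a region it had 237 and 243 CPM in KO transgene, against 158 and 162 CPM in WT transgene, and stood 0.30 ± 0.05 above the input difference (adjusted p = 5.46e-05). Ebf1, a B cell lineage factor (0.27 ± 0.04), the lncRNA 2610035D17Rik (0.28 ± 0.06) and Gm31954 (0.45 ± 0.11) were likewise higher relative to input. The long neuronal genes Tenm2 (teneurin, -0.10 ± 0.01), Asic2 (acid-sensing channel, -0.08 ± 0.01) and Sdk2 (sidekick, -0.16 ± 0.03) rose less in H3K27me3 than in input. Camk2b, a neuronal kinase subunit gene, had 1.41 and 0.811 CPM in KO transgene, against 2.97 and 2.82 CPM in WT transgene, while input was at 0.30 ± 0.38. Ebf1 and the peak of Vps53 and Tlcd3a were the 2 calls when input was included in that fit (0.0344%). The other peaks named by the rule on chromosome 11 did not pass once scaled on it. They were Slc16a6 with Arsg, Axin2, which encodes a feedback inhibitor of Wnt signalling, 2810471M01Rik and 1 peak outside genes.

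The contrast was also made between the lines labelled KO control and WT control, which share no library with the transgene lines. It gave 4483 calls of 102905 peaks (4.36%), 2022 of them off chromosome 11 (2.08%). Of the 474 peaks called off chromosome 11 between the transgene lines, 365 had the same sign in the control lines (77.0%, against 54.5% of all 97064 peaks off chromosome 11 with values in both). The 118 called in the same direction in both were 24.9% of the 474 and 5.84% of the 2022. With chromosome 11 left out of the fit of the transgene lines, 74 of 157 were shared in this way. At the 157 peaks the median difference was 0.24 between the lines labelled KO control and WT control, in the direction of the transgene contrast. In that direction, the median was -0.03 for KO transgene over KO control and 0.22 for WT control over WT transgene. At 142 of the peaks, WT transgene lay further in that direction from its control line than KO transgene did. The peaks were chosen by the transgene contrast, so these values are not a test.

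**Figure D5:**
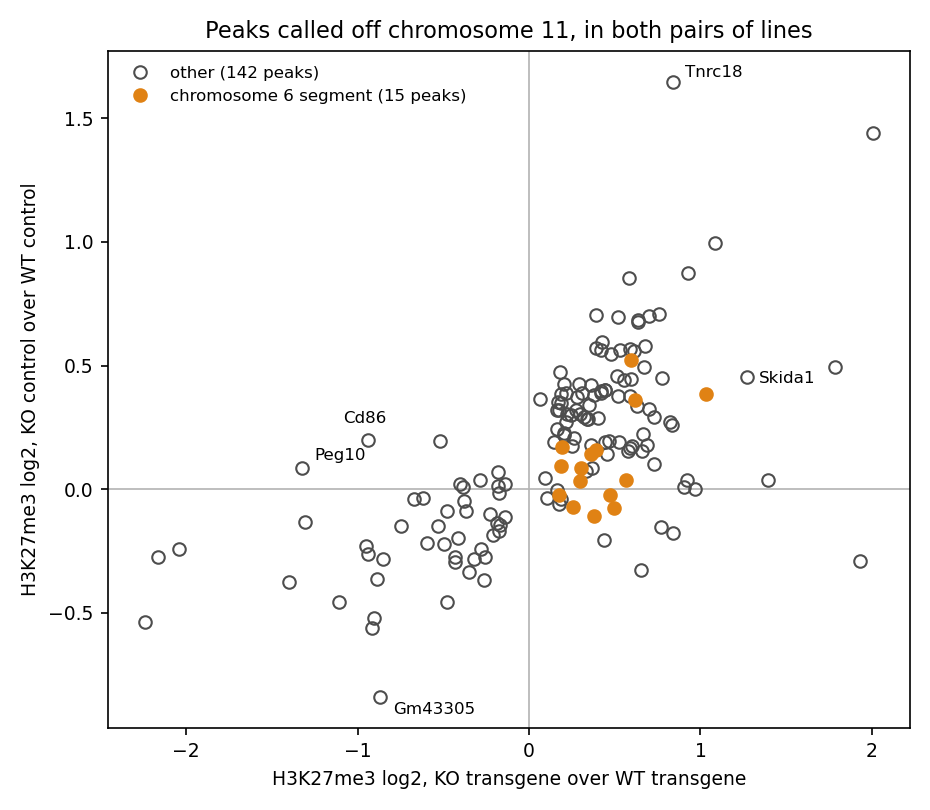
Each of the 157 peaks called off chromosome 11 is placed by its H3K27me3 log2 ratio of KO transgene over WT transgene (x axis) and of KO control over WT control as labelled (y axis), with the chromosome 6 segment in orange. Most peaks share a sign in both pairs, whereas the marked peaks of Peg10 (0.08) and Cd86 (0.20) have small values above 0 in the control lines and the marked peak of Tnrc18 is higher there (1.65).

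The difference between the 2 contrasts was called at 454 of 102957 peaks (0.441%), of which 190 lay on chromosome 11, all lower (3.27%). The chromosome 11 excess was smaller in the transgene pair (median difference -0.14). Off chromosome 11, 45 were higher (0.0463%) and 219 lower (0.225%). At the Tnrc18 peak described above the H3K27me3 was 24.5 and 21.8 CPM in the line labelled KO control, against 8.38 and 6.95 CPM in the line labelled WT control, a log2 value of 1.65 ± 0.11. At this peak the transgene contrast was smaller by 0.82 ± 0.18 (log2 difference -0.82, adjusted p = 0.00235). The other called peak of Tnrc18 (142819998 to 142821379) was at 2.01 in the transgene pair and at 1.44 in the control pair, a difference of 0.56 that was not called (adjusted p = 0.812). Peg10 had 2.12 and 3.31 CPM in the line labelled KO control, against 2.38 and 2.97 CPM in the line labelled WT control (0.08 ± 0.25), and the contrasts differed by -1.44 ± 0.32 (adjusted p = 0.00466). Cd86 had 3.76 and 4.92 CPM in the line labelled KO control, against 3.77 and 4.13 CPM in the line labelled WT control, with a difference of -1.15 ± 0.26 (adjusted p = 0.00604). At Peg10 and Cd86, WT transgene was thus above each of the other lines. Skida1 differed by 0.82 ± 0.28, which was not called (adjusted p = 0.262), and Gm53 by -0.72 ± 0.27 (adjusted p = 0.367).

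Input by itself differed at few places off chromosome 11. There 14 peaks were higher (0.0158%) and 20 lower (0.0225%) in KO transgene, together 0.0383% of 88764, and 8 were called with chromosome 11 left out of the fit. The largest rises were at Tnn, the gene of tenascin N (6.11 and 7.46 CPM in KO transgene, against 3.75 and 2.88 CPM in WT transgene), at Arhgap24 and at 3 peaks outside genes. H3K27me3 at Tnn was 4.70 and 5.27 CPM in KO transgene, against 4.83 and 4.72 CPM in WT transgene, so the groups overlapped in the mark though not in input. The falls were the 3 scaffold peaks and 2 peaks outside genes. Of these 10 peaks, the 3 on the scaffold kept their call with chromosome 11 left out, and the other 7, Tnn and Arhgap24 among them, lost it. Another scaffold, JH584304.1, had no peak among these 10. Of its 8 peaks, 4 were called in input and 5 in H3K27me3. Its input was 3114 and 3017 CPM in KO transgene, against 2757 and 2687 CPM in WT transgene. The line labelled KO control had 3076 and 3009 CPM, and the line labelled WT control 3097 and 3006 CPM. WT transgene was thus below each of the other lines there.

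Replicate error limits all of these calls. Libraries of the same line at 0 h and 48 h differed little beyond sampling noise, with a chi-square per degree of freedom of 1.12 and 1.07 in H3K27me3 and 1.01 and 1.00 in input, against 1.41 and 1.38 and against 1.12 and 1.11 between the lines at 0 h and 48 h. With 1 residual degree of freedom and a common dispersion of 0.000169, the SEs mostly follow read depth, and the p-values measure a spread between 2 libraries of 1 line each that may be technical.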

How the data were processed

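The deposited tables gave the authors' raw counts per consensus peak and library, and per peak a score, a fold (ratio) over background and −log10 p-values by the peak caller. Those values of the authors describe the peak, not a library, and the fold was used only to split peaks. Per the submitters' processing notes, the tools were featureCounts, MACS2 2.2.71, DESeq2 1.26.0 and BWA 0.7.17-r1188, the genome was mm10, and no role or order is stated. Neither the labels nor the tables say which libraries entered the peak call, or whether peak starts count from 0 or 1, so starts are as deposited.

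Groups were taken from the titles and genotype labels. The members, gene lists and the rule for named peaks were chosen with earlier results of these data known. From the counts, edgeR 4.0.16 (R 4.3.3) fitted TMM factors, filterByExpr and the quasi-likelihood F test with line and time as terms, on the 4 libraries of an assay. The test relative to input was the assay by line term over 8 libraries, and the difference between contrasts was the background by transgene term over 8 H3K27me3 libraries. SEs were taken as the log2 value over the root of F. The models were tested on simulated counts. Peaks were named by RefSeq genes (GRCm38.p6, the same build as mm10) whose span with 2000 bp on either side they overlap, and 22302 regions held peaks of 25229 genes. Genes that share peaks are not independent. Exons and UTRs are not in that table. Named were the 10 largest rises and falls off chromosome 11 above the median depth with 1 direction at both times, the 10 and 10 relative to input (2 peaks qualified), the 5 and 5 on chromosome 11 and in input, called list members, Firre and the Hox clusters. Promoter and microRNA sequences are RefSeq's. All 3 promoters and the 1 microRNA looked up were found. Counting intervals cover counting error only, as PCR copies are not independent molecules. Alternatives are given with their effects in the closing section. Some results of the gene lists are not reported here.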

Additional observations from a re-analysis of the deposited data

Results flagged for a closer look

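The following peaks had a contrast of KO against WT that differed between the transgene lines and the control lines by the test of that difference (edgeR, transgene contrast minus control contrast, ± SE).

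On scaffold JH792827.1 the difference was -1.70 ± 0.22, -1.89 ± 0.21 and -1.78 ± 0.31 at its 3 peaks, where WT transgene was above each of the other lines in both assays. At Peg10 it was -1.44 ± 0.32, at Cd86 -1.15 ± 0.26 and at Tnrc18 -0.82 ± 0.18. The peak outside genes on chromosome 4 (150231456 to 150233569) had a difference of 1.01 ± 0.27. It had 6.90 and 5.75 CPM in KO transgene, against 3.27 and 3.81 CPM in WT transgene, and 3.47 and 4.52 CPM in the line labelled KO control, against 4.995 and 4.49 CPM in the line labelled WT control.

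On chromosome 11 the difference was -2.17 ± 0.43 at Camk2b, -0.45 ± 0.09 and -0.39 ± 0.08 at the 2 peaks of Ntn1 and -0.34 ± 0.08 at Gm31954. The fitted difference at Firre was -8.95, but the line labelled WT control held no more than 1 count there, so this value depends on the prior count and is no bound.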

How the results depend on the processing

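No paired analysis was possible because every group holds 1 library, numbered 1, so a block on that number would hold all libraries. Time, a term of each fit reported, matched the lines at 0 h and 48 h instead, and without it 1306 peaks were called in H3K27me3.

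The H3K27me3 count of 1718 became 157 with chromosome 11 left out of the fit and 41 with DESeq2, which gave an adjusted p for only 7144 of 102957 peaks and called 1 off chromosome 11, on scaffold JH584304.1. It was 513 without WT transgene at 0 h, 599 without WT transgene at 48 h, 769 without KO transgene at 48 h and 869 without KO transgene at 0 h, and off chromosome 11 the count of 474 ran from 83 to 190. That count was 157 with chromosome 11 left out, 1 with DESeq2 and 287 without the time block. Scaled on chromosome 11 alone, its calls went to 7 in H3K27me3, 0 in input and 2 relative to input, where there had been 0. The input count of 474 became 8 with chromosome 11 left out and 2 with DESeq2, both on scaffold JH792827.1, and ran from 130 to 226 without 1 library. Relative to input, 3 calls became 0 with DESeq2 and without the time block, 6 with a minimum mean count of 50, and ran from 0 to 3 without 1 condition (without KO transgene at 0 h, Zfp516, Rapgef4 and Firre). Gene regions gave 421 in place of 1831, and 11 in place of 25 relative to input, with chromosome 11 left out. The 454 calls for the difference between contrasts became 243 with total counts, 231 with chromosome 11 left out and 63 with DESeq2, and ran from 191 to 363 without 1 library. With peaks outside chromosome 11 as denominator its ratio was 1.22 in H3K27me3 and 1.23 in input, and with the more enriched peaks only, 1.20 in input. With total counts in place of TMM, 1385 peaks were higher and 292 lower, against 1484 and 234. Of gene regions, 1289 were higher and 691 lower, against 1394 and 437.

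Among 34 named peaks, 317 of 408 alternative fits kept direction and call, and 89 lost the call. Firre, at -0.51, ran from -1.91 to 0.89 without 1 library and reversed to 0.89 without WT transgene at 0 h and to 0.17 without KO transgene at 48 h. These fits have no time term, and its H3K27me3 differed between times in both lines. Without the time block it was -0.58 and not called (adjusted p = 0.082). Low depth, with a median of 57.5 counts per peak, limits small peaks to large changes. A robust dispersion and the scaling on chromosome 11 were added after the data were seen.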
